A study of Macaca fascicularis and Mus musculus with 42 samples.

Results

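Primordial germ cell-like cells (PGCLC) of the mouse were compared with those of the cynomolgus monkey (Macaca fascicularis), both made in GK15, a medium with knockout serum replacement. The comparison used 7 of the 42 bulk libraries of the study. These were 4 mouse libraries (2 of day 4 and 2 of day 6 of induction) and 3 monkey libraries (1 of day 4 and 2 of day 6). Gene by gene, the species were joined by upper-case symbol where that symbol was unique in both tables, which held for 14776 genes out of 34896 mouse and 26018 monkey entries. Of these, 8666 reached 10 RPM in at least 2 of the 7 libraries. RPM is the number of reads of a gene scaled to a library of fixed size (reads per M reads), counted here at the 3′ ends of transcripts and not divided by transcript length.

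Both species received the same cytokines in floating aggregates, namely LIF at 1000 U/ml and BMP4 at 200 ng/ml, with EGF at 50 ng/ml and SCF at 100 ng/ml. The ROCK inhibitor Y27632 was present at 10 µM, in GMEM containing 15% serum replacement. The mouse cells were of line R8, which carries Blimp1-membraneVenus and Dppa3-ECFP, and they passed from naive embryonic stem cells (ESC) through epiblast-like cells before aggregation. The labels do not name the gate of the mouse cells. The monkey cells were of line 656BTAG42, which carries Blimp1-tdTomato and TFAP2C-EGFP, and they were aggregated directly from ESC and sorted as BTAG positive, read here as positive for both reporters. All 7 libraries thus rest on 1 cell line per species, and the labels do not say whether libraries of a group are separate cultures. Species cannot be told apart from line, reporters, starting cells, sort or table.

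Primordial germ cells are the founders of eggs and sperm. In both rodents and primates they are specified by BMP signals, which turn on PRDM1 (also called BLIMP1), a repressor of somatic genes, and TFAP2C, a transcription factor of the early germ line. The upstream circuit is known to differ between species: SOX17 directs germ cell fate in human cells, whereas mouse germ cells use PRDM14 and keep SOX2. Mouse germ cells are also known for the factors of naive pluripotency that they regain.

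Library depth was 2.26 to 2.48 M reads in mouse and 1.66 to 6 M reads in monkey, so 1 read stood for 0.404 to 0.442 RPM in mouse and 0.167 to 0.603 RPM in monkey. Levels near 1 RPM therefore rest on a few reads. The matched genes held 89.3% to 89.6% of the RPM in mouse and 89.4% to 90.1% in monkey. Another pair of monkey libraries labelled GK15 BTAG, of days 4 and 6, was left out because PRDM1 stood at 0 and 0.5 RPM there, against the label. SOX17 was 1.89 and 3.98 RPM in the same pair, POU5F1 was 315 and 1030.4 RPM, and GATA3 was 533 and 1.49 RPM. The left-out library of day 4 was of line 656BTAG42, but that of day 6 was of another reporter line, 656BTAG63. In the latter SOX2 was 394 RPM, DNMT3B 652 RPM and PRDM14 149 RPM. Monkey libraries of a different condition, aRB27, used below as an alternative, included 1 of line 656BTAG63 on day 6.

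The labels were set beside markers. The 6 germ cell markers PRDM1, TFAP2C, NANOS3, DND1, DPPA3 and KIT summed to 1265 to 1557 RPM in mouse and to 1049 to 1345 RPM in monkey. These sums are a description, since PRDM1 served to choose the monkey libraries and DPPA3, at 425 to 829 RPM in mouse and 0 to 0.6 RPM in monkey, makes up much of the mouse sum. The 4 pluripotency markers summed to 1266 to 1584 RPM in mouse and to 3766 to 4785 RPM in monkey. Endoderm markers, 8 in all, summed to 0.88 to 3.09 RPM in mouse and to 41.7 to 97 RPM in monkey, with AFP and TTR listed at 0 in all 7 libraries. Mesoderm markers, 7 in all, summed to 1.77 to 13.2 RPM in mouse and to 34.2 to 81.4 RPM in monkey. Fibroblast markers, 4 in all, summed to 0.84 to 11.9 RPM in mouse and to 19.3 to 26.8 RPM in monkey, and the 6 amnion markers to 106 to 164 RPM in mouse and to 76.6 to 121 RPM in monkey. Neural markers, 3 in mouse and 2 with a monkey entry, summed to 3.53 to 15.7 RPM in mouse and to 6.24 to 51.8 RPM in monkey. The part that other cell types play in the differences below was not tested, and in bulk RNA fewer cells of a type and less RNA per cell cannot be told apart.

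The tables were normalized apart, so no test was run between species. A gene was counted as higher in one species when its lowest library there exceeded the highest library of the other by at least 2 on log2(RPM + 1), which is 4-fold, and when the percentile ranks within the libraries did not overlap either. The condition on ranks excluded no gene. By this rule 780 genes, 9% of the 8666, were higher in mouse and 928 genes, 10.7%, were higher in monkey. The median log2 difference (mouse minus monkey) over all 8666 genes was 0.03, and the median size of the difference was 1.18. The groups overlapped for 24.9% of genes, and 43.8% differed by less than 1 on the log2 scale. Of the genes higher in mouse, 584 reached 10 RPM in no monkey library of the 3, and 707 of those higher in monkey reached it in no mouse library. Such genes passed the filter only through the species where they are high, so the counts over list members below describe the lists and support no direction.

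Taken by day, 1113 genes (12.8%) were higher in mouse and 1252 (14.4%) in monkey on day 4, where the monkey had 1 library. On day 6 the counts were 984 (11.4%) for mouse and 1225 (14.1%) for monkey. Of the genes higher in mouse on day 4, 75.8% were so on day 6, and 85.8% the other way round. For genes higher in monkey the shares were 82.9% and 84.7%. No gene was higher in mouse on one day and in monkey on the other. With the left-out pair of monkey libraries added as labelled, the counts over both days were 566 for mouse and 497 for monkey.

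Among transcription factors of the germ line, SOX17, T and GATA3 were higher in monkey and SOX2, ESRRB and KLF2 in mouse. PRDM1 (mouse gene 12142, chromosome 10:44437177-44528501 of GRCm38) was 141 and 156 RPM on day 4 and 108 and 127 RPM on day 6 in mouse, against 161 RPM on day 4 and 119.5 and 138 RPM on day 6 in monkey. The ranges overlap, but PRDM1 served to choose the monkey libraries and its level is given as a description. Both lines carry a Blimp1 reporter, and whether its reads were counted with PRDM1 was not tested. SOX17 (mouse gene 20671, chromosome 1:4490931-4497354) was 2.65, 0.88, 0.42 and 0 RPM in the mouse libraries, against 1037, 831 and 1062 RPM in the monkey libraries. It ranked 120th to 149th among the genes of a monkey library and no higher than 10567th in any mouse library. SOX2 (mouse gene 20674, chromosome 3:34650405-34652461), a factor of pluripotent and neural cells, ran the other way. It was 418 and 466 RPM on day 4 and 393 and 384 RPM on day 6 in mouse, against 10.7 RPM on day 4 and 1.67 and 0.6 RPM on day 6 in monkey. The mean log2 difference was -9.10 for SOX17 (SD over libraries 0.79 in mouse and 0.19 in monkey) and 6.82 for SOX2 (SD 0.12 in mouse and 1.49 in monkey).

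TFAP2C was present in both, at 234 to 299 RPM in mouse and 560 to 717 RPM in monkey. The groups did not overlap, and the gap between them, 0.91 on the log2 scale, was short of the 2 required. The monkey cells carry a TFAP2C-EGFP reporter and, as the label is read here, were sorted for it. Whether its reads were counted with TFAP2C was not tested. PRDM14, a repressor that guards the germ cell state in mice, was 97.2 to 135 RPM in mouse and 28.7 to 42 RPM in monkey, a gap of 1.19. In both genes every library of one species stood above every library of the other, at less than the 4-fold that was set.

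T (brachyury), a T-box factor that BMP and WNT signals induce in the primitive streak and in early germ cells, was 12.8 and 2.21 RPM on day 4 and 0.42 and 0.40 RPM on day 6 in mouse. In monkey it was 730 RPM on day 4 and 1134 and 816 RPM on day 6. GATA3, a factor of trophoblast and amnion that also marks early human germ cells, was 4.86, 4.42, 2.10 and 2.42 RPM in mouse, against 185, 178 and 197 RPM in monkey. OTX2, a head and epiblast factor that blocks germ cell entry in mice, was 0.44 to 1.26 RPM in mouse and 69.3 to 122 RPM in monkey. TFAP2A, GATA4 and TBX3 were also higher in monkey. So of the 24 germ cell transcription factors, all matched and 19 past the filter, 3 were higher in mouse and 7 in monkey. The shares were 15.8% and 36.8%, against 9% and 10.7% of all genes. No library of the other species reached 10 RPM for 2 of the 3 and 6 of the 7. KLF2 and ESRRB, described with the naive factors, were the other 2 of the mouse. With the left-out pair of libraries added, 2 of the 24 were higher in mouse and 0 in monkey. KLF4 was low in both, at 0.81 to 6.18 RPM in mouse and 6.63 to 13.0 RPM in monkey.

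**Figure D1:**
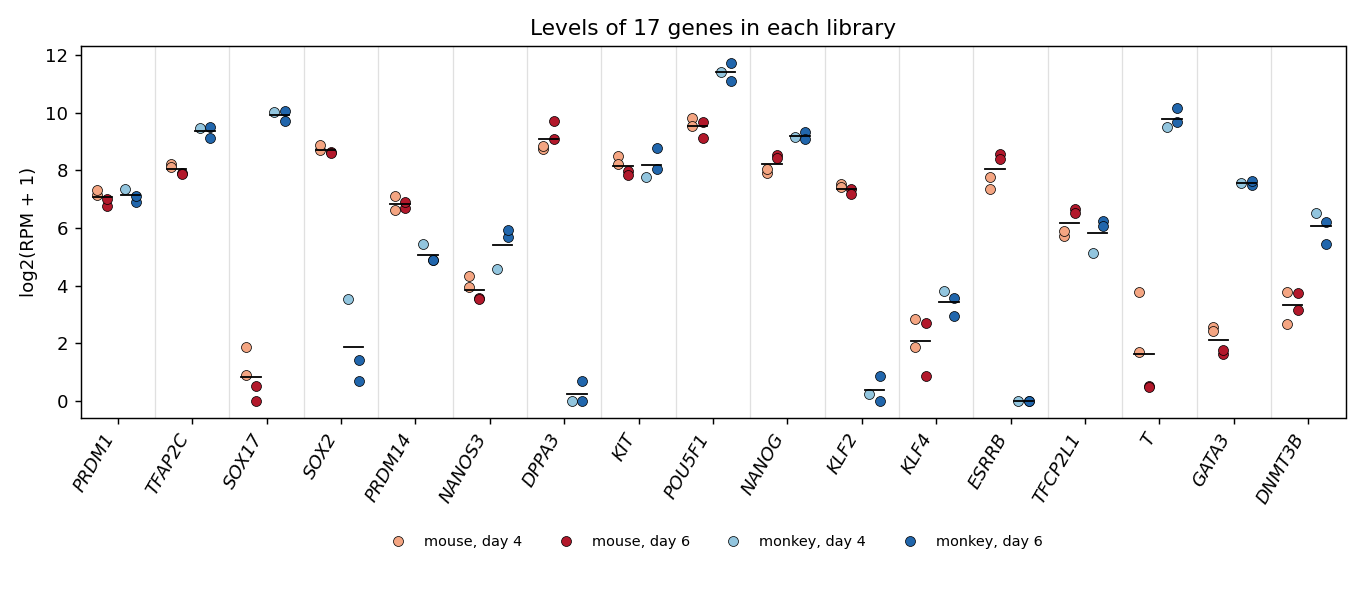
Levels of 17 genes in each library, on the y axis as log2(RPM + 1). For each gene the mouse libraries stand left of the monkey libraries, 1 point per library coloured by day, and a short line marks the mean of the species; SOX17, T and GATA3 lie high in monkey, while SOX2, DPPA3, KLF2 and ESRRB lie high in mouse and PRDM1 and KIT overlap.

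Germ cell genes downstream of these factors were split. DPPA3 (also called STELLA, mouse gene 73708, chromosome 6:122626410-122630272) protects DNA methylation in the early embryo. It was 425 and 455 RPM on day 4 and 829 and 540 RPM on day 6 in mouse, against 0 on day 4 and 0 and 0.6 RPM on day 6 in monkey. The mouse line carries a Dppa3-ECFP transgene, and whether its reads were counted with the gene was not tested. NANOS3, an RNA-binding protein that keeps germ cells alive, was 14.6, 19.0, 10.9 and 10.49 RPM in mouse, against 23.0 RPM on day 4 and 50.0 and 60.3 RPM on day 6 in monkey. Its groups did not overlap, with a gap of 0.26 on the log2 scale, and on day 6 alone it passed the rule as higher in monkey. DND1, which binds RNA and blocks microRNA action in germ cells, was 119.8 to 124.7 RPM in mouse and 20.8 to 27.5 RPM in monkey.

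UTF1, a chromatin protein of pluripotent and germ cells, was 412 to 546 RPM in mouse and 0 to 0.17 RPM in monkey, and DPPA2, a partner of DPPA4, was 17.7 to 86.0 RPM in mouse and 0.17 to 0.6 RPM in monkey. DPPA4 itself overlapped, at 67.6 to 257 RPM in mouse and 188 to 211 RPM in monkey. Components of the piRNA pathway, which silences transposons, had calls in both directions. PIWIL2 was 4.86 to 37.4 RPM and TDRD12 was 10.6 to 44.5 RPM in mouse, both listed at 0 in the monkey libraries, whereas PIWIL1 was listed at 0 in mouse and at 6.03 to 14.2 RPM in monkey. Over all 38 monkey libraries TDRD12 stayed at 0 and PIWIL2 at or under 0.75 RPM. LIN28A, an RNA-binding protein that blocks let-7 and is needed for germ cell precursors in mice, was 60.5 and 53.9 RPM on day 4 and 22.7 and 21.8 RPM on day 6 in mouse, against 1093, 683 and 914 RPM in monkey. Of the 31 early germ cell RNA and chromatin factors, 27 were matched and 14 passed the filter. Higher in mouse were 6 and in monkey 2, and the median log2 difference over the 27 was 1.01. The shares were 42.9% and 14.3%, against 9% and 10.7% of all genes. For 5 of the 6 and 1 of the 2, no library of the other species reached 10 RPM, so the filter fixed their direction. With monkey libraries of the aRB27 condition in place of the GK15 libraries the counts were 4 and 2, and with the left-out pair added 5 and 1.

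POU5F1 and NANOG, core factors of pluripotency, were present in both species. POU5F1 (OCT4) was 890, 743, 821 and 561 RPM in mouse, against 2703, 3383 and 2199.6 RPM in monkey. It ranked 149th to 253rd in the mouse libraries and 22nd to 49th in the monkey libraries. NANOG was 239 and 259.8 RPM on day 4 and 366 and 339 RPM on day 6 in mouse, against 572 RPM on day 4 and 643 and 546 RPM on day 6 in monkey. For both genes the monkey libraries lay above the mouse libraries without reaching the 4-fold gap (1.3 for POU5F1 and 0.57 for NANOG on the log2 scale). SALL4, a zinc-finger partner of POU5F1, was 345 to 394 RPM in mouse and 75.8 to 122 RPM in monkey, also short of the gap. L1TD1, TRIM71 and TDGF1 overlapped. Of the 18 core pluripotency genes, all matched and 17 past the filter, 6 were higher in mouse and 1, LIN28A, in monkey. The shares were 35.3% and 5.88%, against 9% and 10.7% of all genes, and 4 of the 6 reached 10 RPM in no monkey library. With the left-out pair added the counts were 3 and 1, and with monkey libraries of the aRB27 condition in place of the GK15 libraries 4 and 1. Besides SOX2, UTF1 and DPPA2 those of the mouse were ZFP42 (REX1, 34.5 to 96.95 RPM in mouse and 0 in monkey), GDF3, a TGF-β ligand (103 to 119 RPM in mouse and 0.6 to 2.91 RPM in monkey), and the Polycomb subunit PHC1 (155 to 186 RPM in mouse and 24.5 to 32.9 RPM in monkey).

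Naive pluripotency factors, which mark the pre-implantation epiblast of the mouse, were split within the list. ESRRB, an orphan nuclear receptor, was 164 and 219 RPM on day 4 and 374 and 338 RPM on day 6 in mouse and was listed at 0 in all 3 monkey libraries. KLF2 was 182, 169, 161 and 143 RPM in mouse, against 0.17, 0.83 and 0 RPM in monkey. ZFP42, given above, was higher in mouse too, as were NR0B1, NR5A2 and FBXO15, the last 3 at 10.6 to 18.2, 32.3 to 51.3 and 10.2 to 75.6 RPM in mouse and at most 2.5 RPM in monkey. TFCP2L1, a factor of naive cells in both rodents and primates, was instead 51.2 and 57.9 RPM on day 4 and 99.1 and 90 RPM on day 6 in mouse, against 34.3 RPM on day 4 and 75.4 and 65.7 RPM on day 6 in monkey. Its ranges overlap, as do those of KLF5, SOCS3 and MYCN. TBX3 was 1.26 to 7.51 RPM in mouse and 79.3 to 95.9 RPM in monkey. Over the list, 18 of 19 members were matched and 17 passed the filter, 6 of them higher in mouse and 1 in monkey. The shares were 35.3% and 5.88%, against 9% and 10.7% of all genes. All 6 and the 1 reached 10 RPM in no library of the other species, so the filter fixed their direction. The unmatched member, TDH, was 273 to 488 RPM in mouse.

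Several genes of the mouse side were near 0 across the whole monkey table and not only in germ cell-like cells. Over all 38 monkey libraries, ESC included, the highest value was 0.65 RPM for UTF1, 2.26 for DPPA3, 2.59 for ESRRB, 7.61 for KLF2 and 1.3 for ZFP42. POLR2K, a small subunit shared by the RNA polymerases and so needed by every cell, was 185 to 204 RPM in mouse, listed at 0 in the 3 monkey libraries and at no more than 0.93 RPM in any of the 38. For these genes, and for TDRD12 and PIWIL2 above, a level of 0 in the monkey table is only a listed value. Whether their 3′ ends are covered by the monkey annotation was not tested. Of the 780 genes higher in mouse, 465 (59.6%) reached 10 RPM in at least 1 monkey library of the study, 315 never did, and 13 were listed at 0 in all 38. SOX2 is among the 465, with up to 407 RPM and at least 10 RPM in 21 of the 38 libraries, as do DPPA2 (111 RPM at most), LEFTY1 (108) and GDF3 (89.7).

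Of 24 factors of the primed epiblast and of neural tissue, 22 were matched and 17 passed the filter. Higher in mouse were 2, in monkey 6 and in neither 9. The shares were 11.8% and 35.3%, against 9% and 10.7% of all genes. For both of the 2 and for 4 of the 6, no library of the other species reached 10 RPM. With the left-out pair added the counts were 0 for mouse and 2 for monkey. SALL3 was 0 to 0.44 RPM in mouse and 66.5 to 97.9 RPM in monkey. ZIC2 was listed at 0 in mouse and was 92.8 RPM on day 4 and 22.9 and 19.9 RPM on day 6 in monkey. SFRP2, a secreted WNT modulator, was 0.84 to 9.27 RPM in mouse and 101.9 to 238 RPM in monkey, and N-cadherin (CDH2) 2.52 to 18.1 RPM in mouse and 172 to 273 RPM in monkey. The WNT receptor FZD7 went the other way, at 51.2 to 63.4 RPM in mouse and 0.6 to 2.83 RPM in monkey. DNMT3B, the methyltransferase of the epiblast, was 12.8, 5.30, 7.97 and 12.5 RPM in mouse. In monkey it was 90.8 RPM on day 4 and 42.1 and 73.5 RPM on day 6, with a gap of 1.64. On day 4 alone, with 1 monkey library, it passed the rule as higher in monkey.

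**Figure D2:**
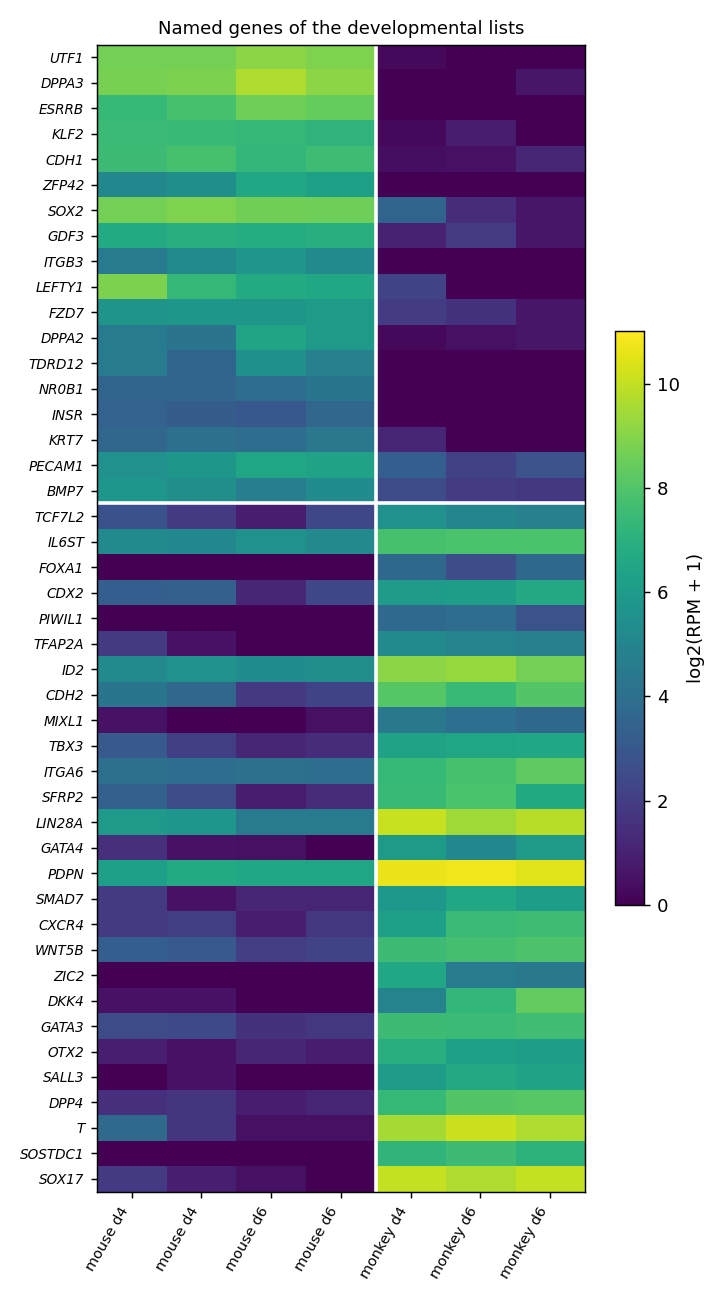
Named genes of the developmental lists (rows) in the 4 mouse and 3 monkey libraries (columns, mouse left), coloured by log2(RPM + 1) from dark (0) to yellow. Rows run by the gap between the species, with genes higher in mouse above the white horizontal line and genes higher in monkey below it, and LEFTY1, DPPA2 and ZIC2 differ visibly between libraries of one species.

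Calls among primitive streak and mesoderm genes over both days were all for monkey. All 26 genes were matched and 15 passed the filter. The median log2 difference over the 26 was -1.95, beside 0.03 for all genes past the filter. For 6 of the genes called, no mouse library reached 10 RPM, so the filter fixed their direction. Higher in mouse were 0 (0%) and in monkey 7 (46.7%), against 9% and 10.7% of all genes. Besides T these were WNT5B (2.94 to 8.83 RPM in mouse and 183 to 243 RPM in monkey), the homeobox factors MIXL1 (0 to 0.44 RPM in mouse and 12.1 to 20.2 RPM in monkey), CDX2 (1.26 to 9.28 RPM in mouse and 66.8 to 98.3 RPM in monkey) and CDX4, the mesoderm factor MESP1 and the repressor SNAI1. EOMES, a streak factor that acts upstream of SOX17 in human germ cells, overlapped, at 0.81 to 5.74 RPM in mouse and 38.7 RPM on day 4 and 5 and 6.63 RPM on day 6 in monkey. With monkey libraries of the aRB27 condition and the same days in place of the GK15 libraries, 3 rather than 7 were higher in monkey, and with the left-out pair added 1 was. On each day taken alone LEF1, a transcription factor of the WNT pathway, was higher in mouse (46.8 and 49.9 RPM on day 4 and 31.9 and 23.4 RPM on day 6 in mouse, 9.17 RPM on day 4 and 1.67 and 1.81 RPM on day 6 in monkey). None of the 26 HOX genes passed the rule over both days, 4 having reached the filter. HOXA9 was 0 and 0.40 RPM in mouse and 38.3 and 50.6 RPM in monkey on day 6. All 4 were higher in monkey on that day, when no mouse library reached 10 RPM, so the filter fixed the direction.

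Endoderm and amnion genes were few. GATA4 (0 to 1.77 RPM in mouse and 34.2 to 62.0 RPM in monkey) and the pioneer factor FOXA1 (0 in mouse and 5 to 12.3 RPM in monkey) were the only 2 of 13 matched endoderm genes past the filter, and both passed only through the monkey libraries. With aRB27 libraries the count of endoderm genes higher in monkey was 1. Of 15 genes of amnion and trophoblast, 9 passed the filter. Keratin 7 (KRT7, 11.5 to 19.8 RPM in mouse and 0 to 1.17 RPM in monkey) was the 1 higher in mouse. GATA3 and TFAP2A (0 to 2.65 RPM in mouse and 26.5 to 36.5 RPM in monkey) were the 2 higher in monkey. The shares were 11.1% and 22.2%, against 9% and 10.7% of all genes, and none of these genes reached 10 RPM in the other species. GATA2 did not overlap between species, at 41.5 to 105 RPM in mouse and 21.0 to 30.7 RPM in monkey, but the gap was 0.42.

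BMP pathway genes were read because both cultures held the same dose of BMP4. All 23 were matched and 18 passed the filter, 1 higher in mouse (5.56%) and 3 in monkey (16.7%), against 9% and 10.7% of all genes. For the 1 and for 2 of the 3, no library of the other species reached 10 RPM. ID2, a direct BMP target, was 35.8 to 48.6 RPM in mouse and 414 to 628 RPM in monkey, whereas its relative ID3 overlapped, at 264 to 367 RPM in mouse and 293 to 445 RPM in monkey. The feedback inhibitor SMAD7 was 0.44 to 2.65 RPM in mouse and 57.5 to 95.8 RPM in monkey, and the secreted antagonist SOSTDC1 was listed at 0 in mouse and at 138 to 183 RPM in monkey. ID1 did not overlap between species, at 13.4 to 92.7 RPM in mouse and 248 to 319 RPM in monkey, and passed the rule on day 6 alone. BMP7, a ligand, was higher in mouse (25.2 to 53.9 RPM, and 2.41 to 4.67 RPM in monkey). The receptors BMPR1A, BMPR2 and ACVR1 stood above the mouse libraries in every monkey library, with gaps of 0.68, 1.82 and 1.92 that stayed under the rule. Such separation is common, since the groups overlapped for only 24.9% of all genes past the filter.

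In the NODAL and WNT pathways, 16 of 23 matched genes passed the filter, 1 higher in mouse and 2 in monkey, close to the 9% and 10.7% of all genes. LEFTY1, a NODAL antagonist that NODAL itself induces, was 449 and 158 RPM on day 4 and 103 and 96.9 RPM on day 6 in mouse, against 3.83 RPM on day 4 and 0 on day 6 in monkey. LEFTY2, without a matched monkey symbol, was 132 to 339.6 RPM in mouse. DKK4, a WNT antagonist, was 0 to 0.44 RPM in mouse, against 29.2 RPM on day 4 and 153 and 323 RPM on day 6 in monkey. TCF7L2, a transcription factor of the WNT pathway, was also higher in monkey (0.84 to 5.74 RPM in mouse and 26.5 to 47.0 RPM in monkey).

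Receptors that guide and feed germ cells differed by receptor. KIT, the receptor of SCF, was 358 and 299.6 RPM on day 4 and 251 and 228 RPM on day 6 in mouse, against 214 RPM on day 4 and 437 and 263 RPM on day 6 in monkey, so the ranges overlapped. CXCR4, which draws migrating germ cells to CXCL12, was 0.84 to 3.09 RPM in mouse and 75.7 to 189 RPM in monkey. IL6ST (gp130), the signalling chain of the LIF receptor, was 34.5 to 48.3 RPM in mouse and 219 to 238 RPM in monkey, while LIFR was 31.1 to 41.97 RPM in mouse and 13.7 to 21.1 RPM in monkey, short of the rule. The insulin receptor INSR was 7.14 to 11.3 RPM in mouse and listed at 0 in monkey. Of the 24 matched genes of this list, 18 passed the filter, 1 higher in mouse and 2 in monkey. The shares were 5.56% and 11.1%, against 9% and 10.7% of all genes. For the 1 and for 1 of the 2, no library of the other species reached 10 RPM. Under median-of-ratios scaling INSR no longer reached the gap.

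Among surface genes used to isolate germ cells, ITGB3 and ITGA6 passed the rule and EPCAM did not. ITGB3 (CD61), with which mouse PGCLC are sorted, was 22.5 to 52.9 RPM in mouse and listed at 0 in every one of the 38 monkey libraries. Whether its 3′ end is covered by the monkey annotation was not tested. ITGA6, with which human PGCLC are sorted, was 14.6 to 15.9 RPM in mouse and 167 to 314 RPM in monkey. EPCAM, its partner in that sort, overlapped, at 146 to 181 RPM in mouse and 51.0 to 266 RPM in monkey. E-cadherin (CDH1) was 157 to 222 RPM in mouse and 0.33 to 1.21 RPM in monkey, while N-cadherin was higher in monkey as given above. Over all 38 monkey libraries CDH1 reached 41.9 RPM at most, with at least 10 RPM in 4 of them. PECAM1 was higher in mouse (46.8 to 88.98 RPM, and 3.33 to 8.83 RPM in monkey). Podoplanin (PDPN, 72.9 to 103 RPM in mouse and 1408 to 1717 RPM in monkey) and the peptidase DPP4 (0.84 to 2.21 RPM in mouse and 164 to 285 RPM in monkey) were higher in monkey. Over the list, 18 of 21 matched genes passed the filter, 3 higher in mouse and 6 in monkey. The shares were 16.7% and 33.3%, against 9% and 10.7% of all genes. No library of the other species reached 10 RPM for all of the 3 and for 1 of the 6.

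**Figure D3:**
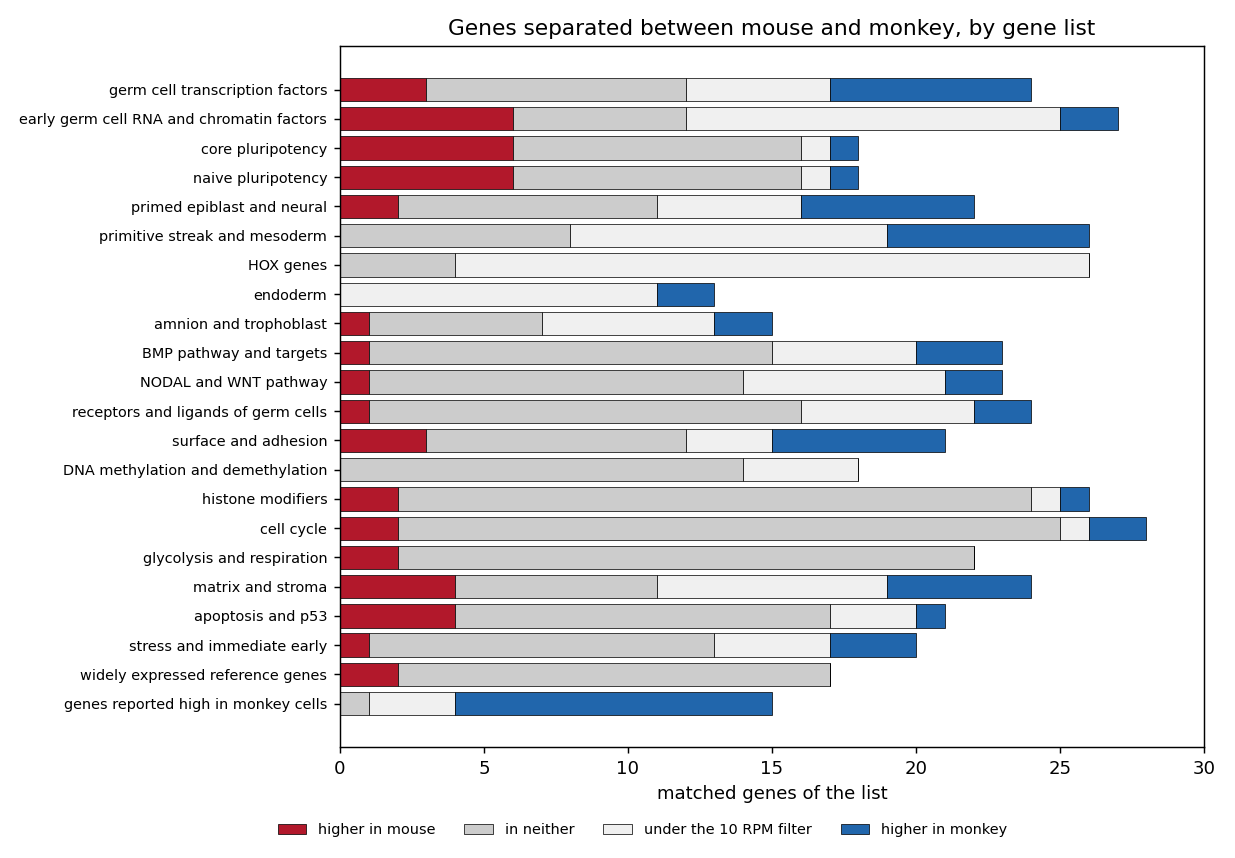
Number of matched genes of each gene list, on the x axis, that were higher in all mouse libraries (left, red), in neither species (dark grey) or under the 10 RPM filter (light grey), or in all monkey libraries (right, blue). Primitive streak genes have 0 calls for mouse and 7 for monkey, naive factors 6 for mouse and 1 for monkey, and DNA methylation and HOX genes have none.

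None of 18 DNA methylation genes passed the rule over both days, 14 having reached the filter. Taken by day, 1 was higher in monkey on day 4 and 1 in mouse on day 6. DNMT1 was 195 to 214 RPM in mouse and 154 to 162 RPM in monkey, TET1 was 142.7 to 183 RPM in mouse and 59.1 to 71.1 RPM in monkey, and UHRF1 overlapped at 16.8 to 28.7 RPM in mouse and 10.8 to 32.0 RPM in monkey. Of 26 histone modifiers, 25 passed the filter, with the deacetylase HDAC1 (598 to 637 RPM in mouse and 83.7 to 132 RPM in monkey) and the methyltransferase DOT1L (84.9 to 98.9 RPM in mouse and 7.08 to 10.8 RPM in monkey) higher in mouse and the Polycomb gene BMI1 (10.6 to 16.95 RPM in mouse and 81.7 to 186 RPM in monkey) higher in monkey. These calls were 8% for mouse and 4% for monkey, under the 9% and 10.7% of all genes. EZH2, EED and SUZ12, the core of Polycomb complex 2, stood above the monkey libraries in every mouse library, with gaps of 1.22, 1.18 and 0.15. These gaps are under the rule, and the groups overlapped for only 24.9% of all genes past the filter.

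Cell cycle genes gave 2 calls each way among 27 past the filter (7.41%), below the 9% and 10.7% of all genes. Inhibitors of the CIP/KIP family ran both ways, CDKN1C being 25.6 to 110 RPM in mouse and 0.42 to 0.83 RPM in monkey and CDKN1B being 7.51 to 16.1 RPM in mouse and 97.9 to 114 RPM in monkey. Cyclin D2 (CCND2) was 5.65 to 42.4 RPM in mouse and 363 to 668 RPM in monkey, and the replication helicase subunit MCM5 was 336 to 488 RPM in mouse and 54.97 to 70.8 RPM in monkey. Of 22 glycolysis and respiration genes, 2 were higher in mouse, ALDOA (538 to 1048 RPM in mouse and 46.6 to 76.6 RPM in monkey) and PFKP, and 0 in monkey, the first count being at the 9% of all genes. In the apoptosis and p53 list, MDM2, which degrades p53, was 101.2 to 175 RPM in mouse and 3.83 to 9.99 RPM in monkey. BAX, BID and BCL2L11 were also higher in mouse, and SESN1 was the 1 gene higher in monkey, of 18 past the filter. The shares were 22.2% and 5.56%, against 9% and 10.7% of all genes. For 3 of the mouse calls and for SESN1, no library of the other species reached 10 RPM. The call of SESN1 was lost under quantile normalization and with aRB27 libraries, which also left 3 genes higher in mouse.

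Matrix genes were divided, with 4 higher in mouse and 5 in monkey of 16 past the filter. The shares were 25% and 31.2%, against 9% and 10.7% of all genes. For 1 of the 4 and 3 of the 5, no library of the other species reached 10 RPM. With the left-out pair added the counts were 0 and 2, and with aRB27 libraries 4 and 3. SPARC was 512 to 590 RPM in mouse and 28.3 to 57.7 RPM in monkey, and ACTA2, LAMB1 and COL18A1 were the other 3 of the mouse. COL2A1, a cartilage collagen, was 0.84 to 7.51 RPM in mouse, against 272 RPM on day 4 and 801 and 634 RPM on day 6 in monkey. VIM, an intermediate filament, was 107 to 382 RPM in mouse and 1653 to 2817 RPM in monkey. Immediate early genes of the EGR family were higher in monkey: EGR1 was 3.36 to 17.2 RPM in mouse and 436 to 795 RPM in monkey, and EGR2 and EGR3 were at most 1.33 RPM in mouse. FOS did not overlap between species, at 7.26 to 39.3 RPM in mouse and 77.8 to 461 RPM in monkey, with a gap of 0.97. In all, 1 of 16 stress and immediate early genes past the filter was higher in mouse and 3 in monkey. The 1 was the asparagine synthetase ASNS (272 to 322 RPM in mouse and 36.3 to 50.4 RPM in monkey). The shares were 6.25% and 18.8%, against 9% and 10.7% of all genes, and 2 of the 3 reached 10 RPM in no mouse library.

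As a measure of the floor of such a comparison, 17 widely expressed genes were read the same way. Their log2 differences ran from -1.63 to 3.24 with a median of 0.01, and 2 of them passed the rule, both higher in mouse. These were PPIA (5620 to 5848 RPM in mouse and 478 to 778 RPM in monkey) and EEF2 (820 to 989 RPM in mouse and 122 to 182 RPM in monkey). Genes with known close copies, such as PPIA, can share reads with their processed copies, and the labels do not say how such reads were counted. A 4-fold separation was thus also seen in genes that every cell uses.

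The 8 genes with the widest gap on the mouse side were PEG3, UTF1, DPPA3, EML6, ATP1B1, SNRPN, POLR2K and SLC38A4, at 175 to 829 RPM in mouse and 0 to 0.6 RPM in monkey. Of these PEG3, SNRPN and SLC38A4 are known as imprinted genes expressed from the paternal allele. SNRPN was 199.8 to 270.3 RPM in mouse and listed at 0 in the 3 monkey libraries, but it was 1607 and 694 RPM in ESC of line CMK6, 757 RPM in line 681F, 852 RPM in line 22 and 0.25 RPM in line 656. In ESC of the other 3 lines SNRPN thus stood above all mouse libraries, and the reporter line 656BTAG42 carries 656 in its name. Among the widest gaps on the monkey side were those of ATP6V1C2, FGF12, PRRG1, CRHBP, GREM1, SOX17 and NMU, at 0 to 2.65 RPM in mouse and 232 to 1336 RPM in monkey. ATP6V1C2, a subunit of the proton pump, and FGF12, an intracellular FGF homologue, were also 210 to 446 and 81 to 126 RPM in the 5 monkey ESC libraries without transgenes. CRHBP, which binds corticotropin-releasing hormone, GREM1, a BMP antagonist, and NMU, a neuropeptide, were at most 6.13, 3.61 and 11.3 RPM in these ESC.

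**Figure D4:**
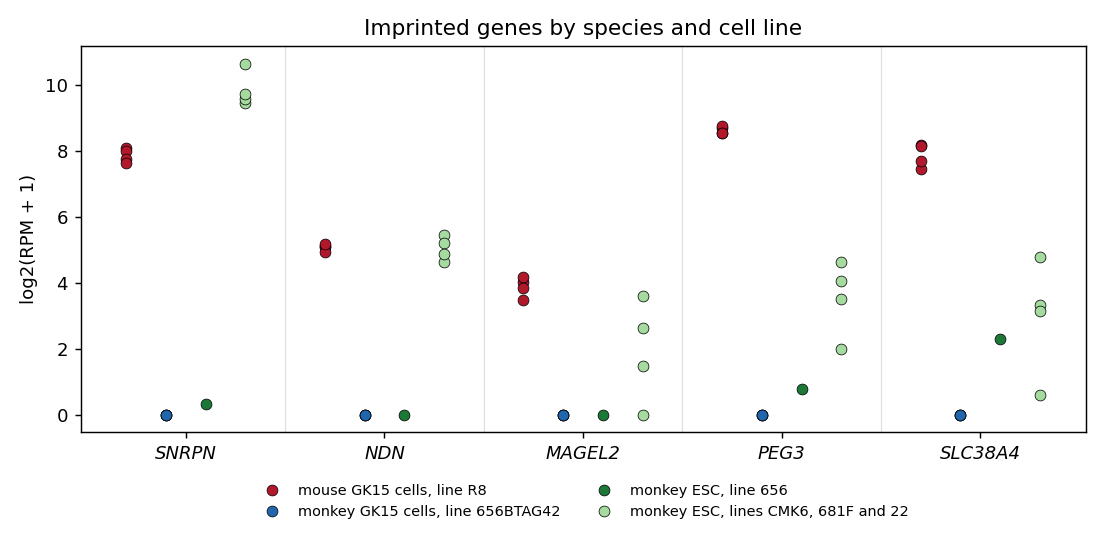
Levels of 5 imprinted genes, chosen after their values were seen, as log2(RPM + 1) on the y axis, 1 point per library, with mouse GK15 cells leftmost, then monkey GK15 cells, ESC of line 656 and ESC of the other 3 lines. SNRPN and NDN lie at or near 0 in monkey GK15 cells and line 656, and at or above 23.8 RPM in ESC of the other lines.

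Of the 16 genes that had been described as high in monkey germ cell-like cells, 15 were matched, 12 passed the filter and 11 were higher in monkey, with a median log2 difference over the 15 of -6.35. The 11 were 91.7% of those past the filter, against 10.7% of all genes. For 10 of the 11, no mouse library reached 10 RPM, so the filter fixed their direction. The list was chosen on these monkey samples, so the direction is not independent evidence. HPGD, which breaks down prostaglandins, was 6.62, 15.9, 13.0 and 12.9 RPM in mouse, against 1579, 1449.5 and 1137.5 RPM in monkey, and was present in mouse at a low level. ST8SIA6, a sialyltransferase, was 0 to 2.21 RPM in mouse and 210 to 284 RPM in monkey. With the left-out pair added, 0 of the 15 passed the rule.

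Over the 14776 matched genes, Spearman's rho between a mouse and a monkey library lay between 0.743 and 0.766 in the 12 pairs, against 0.963 to 0.975 within mouse and 0.961 to 0.967 within monkey. It was 0.760 and 0.766 on day 4 and 0.743 to 0.752 on day 6. With the 5 monkey ESC libraries without transgenes it was 0.740 to 0.786 in 20 pairs, so by this measure the mouse cells were no nearer to monkey germ cell-like cells than to monkey ESC. Over the 7211 genes at 10 RPM or more in 2 mouse libraries, rho between the species was lower, at 0.522 to 0.562. There it was 0.478 to 0.582 with the ESC, against 0.940 to 0.974 within mouse and 0.954 to 0.969 within monkey. These values are across genes, which are not independent replicates, and are given as a description.

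The days were tested within each table. In mouse, day 6 was set against day 4 (2 libraries each) with limma on log2(RPM + 1) over 8255 genes, and a call needed a Benjamini-Hochberg adjusted p under 0.05 and a log2 difference of at least 1. On day 6, 99 genes were higher (1.2%) and 115 lower (1.39%). The largest increases were RPL39L (44.8 RPM on day 6 and 4.195 RPM on day 4), the X-linked homeobox gene RHOX6 (562 RPM on day 6 and 75.1 RPM on day 4) and BC048679. The largest decreases were the caudal epiblast factor NKX1-2 (0.62 RPM on day 6 and 27.2 RPM on day 4), SOX3 and the ligand WNT5A (1.45 RPM on day 6 and 30.04 RPM on day 4), with limma adjusted p of 0.00231, 0.00356 and 0.000692. Without either day 6 library the count of calls was 0, without library 1 of day 4 it was 62 and without library 2 of day 4 it was 195; the lone library left in a day is then assumed to vary like the other day. Library 1 of day 4 held more of T, HOXA10 (18.1 and 1.77 RPM) and NKX1-2 (39.7 and 14.6 RPM) than library 2.

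Of 5 primitive streak genes tested, 4 fell, EVX1, HAND1, WNT5A and NKX1-2. Of 13 BMP pathway genes 3 fell, ID1, ID4 and BAMBI, against 1.39% of all genes. Without library 1 of day 4, calls of a fall dropped more than calls of a rise, so the falls given here may lean on that library. Of 15 NODAL and WNT genes tested 3 fell, LEFTY1, TCF7 and NOTUM. Of 7 amnion and trophoblast genes 3 fell, the keratins KRT8 and KRT18 and the factor HAND1. Of 10 primed epiblast and neural genes 4 fell, SOX3 and CDH2 among them. The share of all genes that fell was 1.39%. Of 29 glycolysis and respiration genes 2 rose, HK1 and LDHB, against 1.2% of all genes. LIN28A fell (log2 difference -1.32 ± 0.20 SE, limma adjusted p = 0.00586). DPPA4 rose (1.76 ± 0.14, limma adjusted p = 0.000116), as did DPPA2, PIWIL2, ZFP42, FBXO15 and DNMT3L, a cofactor of DNA methylation. ESRRB, TFCP2L1 and NANOG had log2 differences of 0.91, 0.78 and 0.50 with limma adjusted p of 0.00884, 0.0248 and 0.0392, which is under the size of 1 set for a call. DPPA3 had 0.60 ± 0.17 (limma adjusted p = 0.0723).

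In monkey the same contrast had 1 library of day 4 and 2 of day 6, with the spread taken from 8 GK15 libraries of all days. Limma called 0 genes higher (0%) and 1 lower (0.0107%) of 9333, while 483 had an unadjusted p under 0.05. edgeR on the recovered reads called 0 higher and 4 lower (664 with an unadjusted p under 0.05), and DESeq2 16 higher and 10 lower (409). The 1 gene was FGFBP3, an FGF carrier, at 19.6 and 56.7 RPM on day 6 and 632 RPM on day 4. Its call was lost in several alternatives and rests on the lone day 4 library. T, whose mouse level was near the floor by day 6, had a log2 difference of 0.40 ± 0.34 in monkey (limma adjusted p = 0.999), and NKX1-2 one of -0.06 ± 0.38 (limma adjusted p = 0.999). TFCP2L1 had 1.01 ± 0.36 in monkey (limma adjusted p = 0.779) and 0.78 ± 0.16 in mouse. Whether a change between the days differs between the species was not tested, since the tables were normalized apart.

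**Figure D5:**
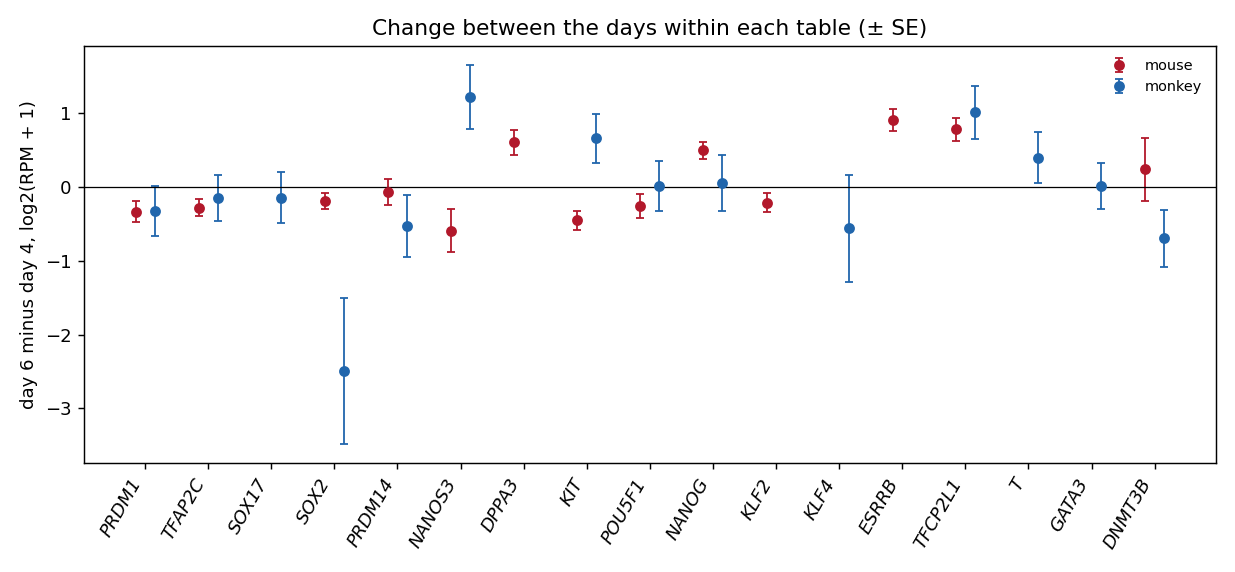
Change between day 6 and day 4 (y axis, difference in log2(RPM + 1), day 6 minus day 4) of the 17 genes named throughout, within the mouse table (red, left) and within the monkey table (blue, right). Points are limma estimates and bars their SE; genes under 10 RPM in a table are left out of it, and NANOS3 and KIT lie under 0 in mouse and above 0 in monkey.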

How the data were processed

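Per gene and library, the authors deposited RPM in 1 table a species, a unit taken from the names of the tables, and 7 libraries were read. The submitters' processing notes list GRCm38 as a build and, as tools with no stated step, cutadapt 1.3, TopHat 1.4.1 and Cufflinks 2.2.0. For the monkey no build is named, and coordinates were printed for mouse genes alone, from GENCODE on GRCm38. The 96 spike-in entries of the mouse table were left out of every step. Groups followed the labels, and libraries are numbered in accession order. Low values were whole multiples of 1 read in 99.6% to 99.8% of cases (tolerance 0.1 steps, up to 100 steps), and reads were recovered from this step.

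Genes were matched by upper-case symbol unique in both tables. Libraries were compared on log2(RPM + 1) and by percentile rank, after a filter of 10 RPM in at least 2 of the 7 libraries. The call between species is a separation of at least 2 on the log2 scale and is no test. Days were tested with limma 3.58.1 (trend) in R 4.3.3 within each table, and with edgeR 4.0.16 and DESeq2 1.42.0 on recovered reads as alternatives, with Benjamini-Hochberg adjustment over all genes tested. The monkey fit left out the 3 GK15 BTAG libraries whose PRDM1 contradicts the label. Both steps were tested on simulated data. p-values measure the spread between these libraries, which may be technical.

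The genes compared, the lists and the tests were chosen with earlier results of these data known. Named were 17 fixed genes, up to 4 called genes of each list and direction with the widest gap, the 8 widest gaps each way, and up to 3 day changes each way. Some genes that these rules name are not reported here. Further genes in the text were named after their values were seen. Alternatives were pseudocounts of 0.1 and 10, gaps of 1 and 3, 3 scalings, no filter, a mean of 20 RPM, other monkey libraries, no rank criterion (chosen after seeing the data) and each library left out in turn.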

Additional observations from a re-analysis of the deposited data

Results flagged for a closer look

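For 3 of the 17 genes named throughout, every day 6 library lay on one side of every day 4 library in mouse and on the opposite side in monkey. The share of all genes with such an order was not counted. With so few libraries, such an order can arise without a change between the days. NANOS3 had a log2 difference (day 6 minus day 4) of -0.59 in mouse and 1.22 in monkey. KIT had -0.45 in mouse and 0.66 in monkey, and T had -2.24 in mouse and 0.40 in monkey. The difference between the species was not tested, monkey day 4 is 1 library, and within each table none of the tested changes passed the limma threshold (T was under the filter in mouse).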

How the results depend on the processing

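No paired analysis was possible because the labels give no replicate numbers that the groups share. Between the species, calls over both days (780 higher in mouse, 928 higher in monkey) and by day (2365 on day 4, 2209 on day 6) fell to 302, 396, 1047 and 962 with a pseudocount of 10, to 382, 504, 1267 and 1260 with a gap of 3, and to 511, 564, 1427 and 1318 with a mean of at least 20 RPM. With a gap of 1 they were 1612, 1692, 4434 and 4009. With the left-out libraries added, genes higher in monkey were 497. Leaving out each library in turn gave 804 to 878 genes higher in mouse, 959 to 1044 higher in monkey, 2567 to 2673 on day 4 and 2411 to 2612 on day 6. Pseudocount 0.1, the 3 scalings, no filter and aRB27 libraries kept these counts within 1.5 times. Dropping the rank criterion left them unchanged, so that criterion excluded no gene. The 214 mouse day calls became 94 with a pseudocount of 10, 130 with a mean of at least 20 RPM, 138 with DESeq2, 0 without a filter, and 0 to 195 without 1 library. The 1 monkey day call became 0 with a pseudocount of 0.1, a mean of at least 20 RPM, quantile normalization, all GK15 libraries as labelled or days 4 and 6 alone, 2 with a pseudocount of 10, 4 with edgeR, 26 with DESeq2, 56 without a filter, and 0 to 13 without 1 library. The cause of these shifts was not tested. Of 323 recomputed differences of the 17 genes, 31 moved by more than 1 SD, 13 of them with the left-out libraries added, where PRDM1, TFAP2C, NANOS3, KIT and NANOG took the opposite sign (2.66, 0.69, 0.44, 2.27 and 1.17). With aRB27 libraries TFCP2L1 (-0.50) and KIT (0.25) changed sign, and without 1 library PRDM1 and KIT did in 4 cases (0.03 to 0.24), for 11 changes of sign in all. The day 4 contrast rests on 1 monkey library, and levels under about 3 reads (1.21 to 1.33 RPM in mouse, 0.50 to 1.81 RPM in monkey) limit every statement on absence.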

Other observations

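Of 9 imprinted genes known for expression from the paternal allele, some were near 0 in line 656 and the reporter lines. Others were near 0 in the reporter lines alone or in neither. The genes were chosen after the values of PEG3 and SNRPN were seen and are given as values only. NDN, a neighbour of SNRPN in the locus of Prader-Willi syndrome, was 29.8 to 35.1 RPM in mouse and 0 in the 3 monkey GK15 libraries. In monkey ESC it was 42.8 and 23.8 RPM in line CMK6, 36.4 RPM in line 681F, 28.5 RPM in line 22 and 0 in line 656. MAGEL2, of the same locus, was 10.2 to 17.2 RPM in mouse and 0 in all 33 libraries of the reporter lines and in line 656. In the other ESC it was 1.82 and 0 RPM in line CMK6, 11.1 RPM in line 681F and 5.19 RPM in line 22. Over the 33 libraries of the reporter lines, SNRPN reached 2.77 RPM at most and PEG3 0.41 RPM. PEG3 was 370 to 434 RPM in mouse, 0.74 RPM in ESC of line 656 and 2.98 to 23.7 RPM in the other ESC.

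For the other 5 genes, line 656 was not the lowest of the ESC libraries. In the 33 libraries of the reporter lines, NNAT reached 0.65 RPM at most and SLC38A4 1.32 RPM, no higher than SNRPN. MEST reached 171 RPM there, PLAGL1 61.6 RPM and PEG10 1149 RPM. SLC38A4 was 175 to 291 RPM in mouse, 3.94 RPM in line 656 and 0.52 to 26.7 RPM in the other ESC. NNAT was 0 to 0.88 RPM in mouse, 15.0 RPM in line 656 and 2.33 to 14.4 RPM in the other ESC. MEST was 5.74 to 34.5 RPM in mouse, 16.97 RPM in line 656 and 16.6 to 70.1 RPM in the other ESC. PLAGL1 was 5.04 to 15.5 RPM in mouse, 4.92 RPM in line 656 and 3.25 to 10.01 RPM in the other ESC. PEG10 was 0 to 3.97 RPM in mouse and 398 to 791 RPM in the monkey GK15 libraries, with 61.0 RPM in line 656 and 10.01 to 102.01 RPM in the other ESC.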
